A study of Mus musculus with 17 samples.

Results

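Germinal centre (GC) B cells hold their identity through a small set of transcription factors, and the data below follow the mRNA of 10 of them, *Bcl6*, *Bach2*, *Pax5*, *Ebf1*, *Irf8*, *Spib*, *Pou2af1*, *Mef2b*, *Mef2c* and *Tcf3*. They are factors known to build or hold the GC B cell state, listed by name with earlier results of these data known. All 10 were found among the 21848 genes of the gene-expression tables and passed the filter on low counts in every comparison. Single cells sorted from mouse lymph nodes had been profiled by droplet sequencing from the 5′ end of the mRNA. Unique molecular identifiers (UMIs, which tag single RNA molecules) were summed per mouse. A level is given in CPM, the gene's share of all UMIs of that mouse on the usual scale, and is thus not an amount per cell.

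In the time course, recipient mice primed with ovalbumin (OVA) had received B1-8hi B cells, which carry a knocked-in heavy chain specific for the hapten NP, and were immunized with NP-OVA in the footpad. Anti-DEC-OVA was given at 7 dpi. It is an antibody to DEC-205 that carries OVA into the GC B cells that express DEC-205, so that these receive strong T cell help. Per the paper, the transferred B1-8hi cells were a mix of cells with DEC-205 and cells that lacked it (*Ly75*-/-). Its mutation counts for this time course are for the DEC-205-expressing cells. Cells were taken at 0 h from 9 untreated mice, at 48 h from 6 untreated and 9 treated mice, and at 72 h from 8 untreated and 7 treated mice. They were run in 2 pools of 25 and 14 mice that each held every group. In the second experiment, GC B cells of 7 mice were sorted by image at 72 h after anti-DEC-OVA into cells with a cytoplasmic (CDK2hi) and a nuclear (CDK2low) DHB-tdTomato reporter of CDK2 activity, placed in the *Rosa26* locus. Per the paper, the sorted cells carried this reporter alone or together with H2B-GFP. It states that the reporter mice were crossed to the B1-8hi receptor. For its imaging, reporter B1-8hi cells were a minor fraction of the cells that seeded the GCs. The B1-8hi pair of heavy and light chain was found in 55.4% to 68.2% of CDK2hi cells per mouse. In CDK2low cells it was found in 52.8% to 67.5% per mouse. All 7 mice had been treated, and each sorted population was 1 library, so that population and library cannot be told apart. The third experiment held 9 mice in 1 pool, with WT hosts of B1-8hi cells. Per the paper, a minor part of the transferred cells expressed DEC-205 and carried a tetracycline-regulated H2B-mCherry reporter under Vav-tTA, and the rest lacked DEC-205 (*Ly75*-/-). Cells came from 3 mice at 7 dpi, 3 untreated mice at 10 dpi and 3 treated mice at 10 dpi, the treated cells sorted for low mCherry. The labels give no age for these mice, while the paper states an age range of young adult mice of both sexes for all its experiments.

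PAX5, EBF1 and E2A, the protein of *Tcf3*, switch on the B lineage programme and keep it in place in mature B cells. BCL6 is the repressor without which no GC forms, and BACH2 is a repressor that holds back plasma cell differentiation. MEF2B binds at and activates *Bcl6*, and MEF2C acts downstream of the B cell receptor. IRF8 and the ETS factor SPI-B share DNA elements with PU.1. OCA-B, the protein of *Pou2af1*, is the coactivator that OCT1 and OCT2 need in GC B cells. In the GC, cells divide in the dark zone and receive T cell help in the light zone.

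The GC cells had been gated as positive for B220 and FAS and negative for CD38 and TCRβ, and the CDK2 reporter cells had been stained for B220, CD38 and FAS. Of the genes behind this gate, *Fas* was detected in all 39 mice of the time course, and *Cd38* mRNA was also detected in all 39, at up to 22.2 CPM. *Fas*, *S1pr2*, *Mybl1*, *Rgs13* and *Gcsam*, the GC B cell markers listed for this purpose, summed there to between 976 and 1446 CPM. The 5 T cell markers in the tables summed there to at most 23.8 CPM. In the CDK2 reporter experiment the GC markers summed to between 1232 and 1421 CPM, and the T cell markers to at most 51.9 CPM, a sum reached in the CDK2low cells of 1 mouse. The time course held between 1984426 and 13373185 UMIs per mouse, the CDK2 reporter experiment between 3988733 and 20394909 per mouse and population, and the third experiment between 349784 and 4728692, with a median of 1752 UMIs per cell in that pool. At most 43 cell barcodes were shared between any 2 pools.

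The 250 bases before the annotated start are shown for *Ebf1* and *Pou2af1*, the factors with the largest lower and higher difference in share of UMIs at 48 h, and for *Bcl6*, to set promoters of factors with opposite differences side by side. They are read from the GRCm39 genome at the canonical transcript of GENCODE, 5′ to 3′ on the strand of the gene, in lower case with matches to the searched motifs in capitals.
Ebf1: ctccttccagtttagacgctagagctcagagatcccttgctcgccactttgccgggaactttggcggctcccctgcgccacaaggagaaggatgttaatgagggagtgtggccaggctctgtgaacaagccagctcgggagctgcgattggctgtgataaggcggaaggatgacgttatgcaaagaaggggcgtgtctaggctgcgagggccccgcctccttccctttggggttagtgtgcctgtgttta
Pou2af1: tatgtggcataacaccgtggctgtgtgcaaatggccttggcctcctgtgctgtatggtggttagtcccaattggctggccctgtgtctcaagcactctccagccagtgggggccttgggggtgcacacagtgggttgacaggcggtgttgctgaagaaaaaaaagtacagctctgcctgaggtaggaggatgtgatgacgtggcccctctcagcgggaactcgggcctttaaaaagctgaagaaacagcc
Bcl6: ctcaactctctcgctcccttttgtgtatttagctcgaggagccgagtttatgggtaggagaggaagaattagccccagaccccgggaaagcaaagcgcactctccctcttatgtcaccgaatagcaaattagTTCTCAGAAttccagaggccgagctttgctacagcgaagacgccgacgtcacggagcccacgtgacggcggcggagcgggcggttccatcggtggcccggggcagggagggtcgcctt
The *Ebf1* stretch lies at chr11:44507888-44508137 on the plus strand, that of *Pou2af1* at chr9:51124734-51124983 on the plus strand and that of *Bcl6* at chr16:23807603-23807852 on the minus strand, each directly before its gene. They differ in CpG number, with 12, 5 and 21 CpGs against a median of 8 over 21770 promoters of protein-coding genes. The capitals mark TTCTCAGAA in *Bcl6*, from 118 to 110 bases before the start, a match to TTCNNNGAA, the palindrome read by BCL6 and STAT proteins. This motif was in 7.70% of all promoters and in 2 of the 10 members, *Bcl6* and *Irf8*.

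The other motifs were searched on both strands and were in none of the 10 stretches. They were the E-box CAGGTG of E proteins (17.7% of all promoters), the octamer ATTTGCAT of OCT factors (1.49%) and TGACTCA, read by AP-1 and by BACH2 with MAF (4.02%). The others were the EBF1 palindrome (0.882%), the MEF2-type motif (3.32%) and the ETS-type GAGGAAGT of PU.1 and SPI-B (2.08%). The search covers exact letters in this window alone.

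In GRCm39 *Bach2* (chr4:32238714-32586108) and *Pax5* (chr4:44524757-44710487) share a chromosome, as do *Irf8* (chr8:121463096-121485659) and *Mef2b* (chr8:70592051-70620755). *Ebf1* spans chr11:44508138-44898918, *Bcl6* chr16:23783802-23807602, *Spib* chr7:44175417-44181495, *Pou2af1* chr9:51124984-51151380, *Mef2c* chr13:83652064-83815555 and *Tcf3* chr10:80244046-80269594. *Bach2*, *Pax5*, *Ebf1*, *Bcl6*, *Pou2af1*, *Mef2b* and *Mef2c* overlap annotated noncoding genes.

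**Figure D1:**
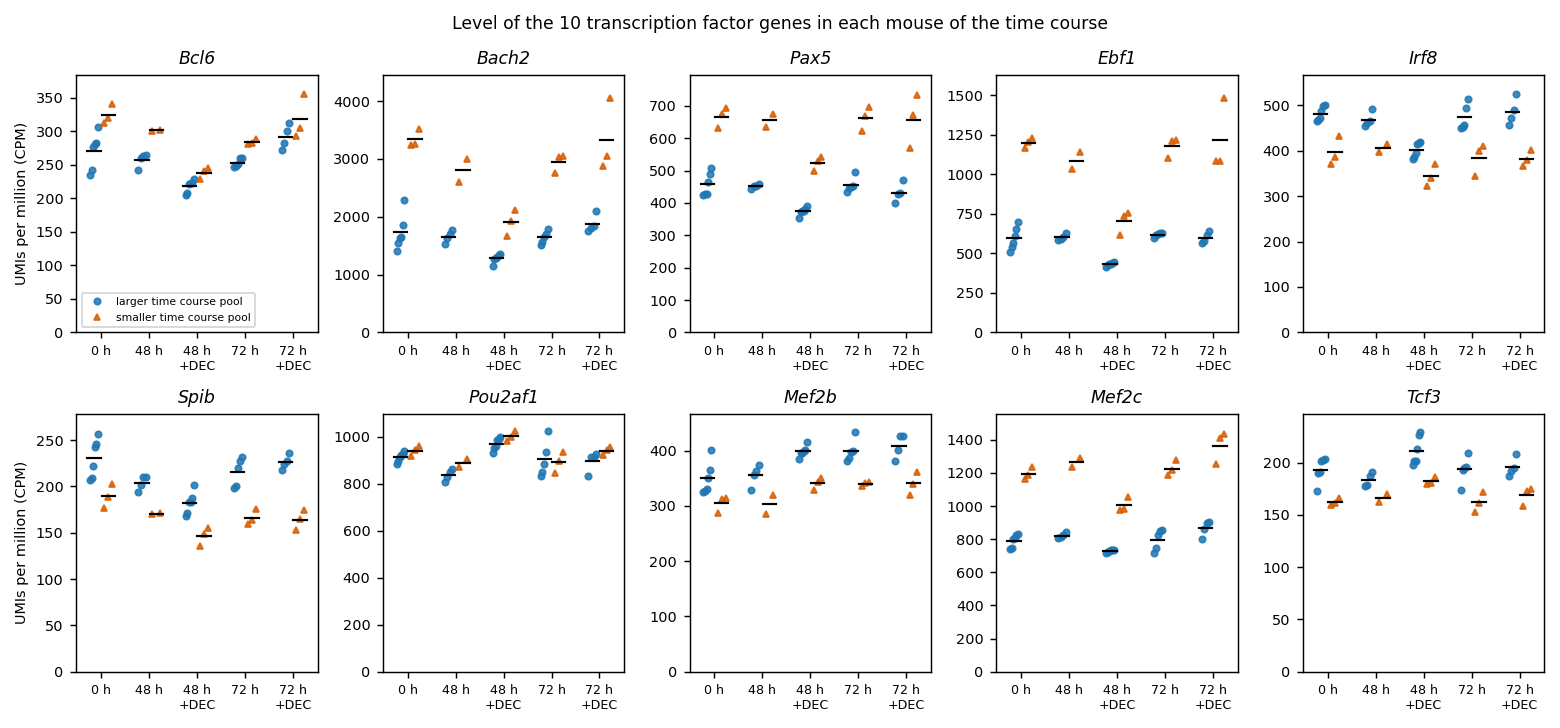
Level of each of the 10 genes in the 39 mice of the time course, in CPM on axes that start at 0, with 1 point per mouse, the pool shown by the symbol and the mean of each group within its pool by the bar. Over both pools the treated mice at 48 h have the lowest mean for *Bcl6*, *Bach2*, *Pax5*, *Ebf1*, *Irf8*, *Spib* and *Mef2c* and the highest for *Pou2af1* and *Tcf3*, an order of shares of UMIs that is not an order of UMIs per cell.

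The first question was how the identity factors stood at 48 h after anti-DEC-OVA, against untreated mice of the same day. As a share of UMIs, 7 of the 10 factors were lower in treated mice (*Ebf1*, *Bach2*, *Pax5*, *Bcl6*, *Irf8*, *Mef2c* and *Spib*) and 3 were higher (*Pou2af1*, *Tcf3* and *Mef2b*), but all 10 were higher in UMIs per cell, as were 92.9% of all genes. As shares of UMIs all 10 passed an adjusted p of 0.05 (edgeR with Benjamini-Hochberg adjustment over all genes), in a comparison in which 47.3% of the 10270 genes tested did so, 24.8% higher and 22.5% lower. Without TMM scaling factors the split of all genes was 18.4% higher and 30.1% lower, and the members kept 3 higher and 7 lower. The largest member change was 0.47 on the log2 scale and the median absolute change of all genes was 0.18.

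*Ebf1*, the pioneer factor of the B lineage, changed most as a share of UMIs. In the larger pool its level was between 587 and 626 CPM in the 4 untreated mice and between 414 and 442 CPM in the 6 treated mice. In the smaller pool, where the gene was higher in every group, it was 1031 and 1141 CPM in the 2 untreated mice and between 619 and 757 CPM in the 3 treated mice. Treated and untreated mice did not overlap within either pool, although they overlapped when the pools were put together, with a median of 438 CPM in treated and 616 CPM in untreated mice. The fitted log2 difference, with a term for the pool, was -0.47 ± 0.058 (SE, adjusted p = 2.38e-08 from edgeR), and it was -0.46 in the larger pool alone and -0.55 in the smaller pool alone.

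*Pax5*, which commits cells to the B lineage and works with EBF1, was lower as well. Its level ranged from 353 to 392 CPM in treated and from 444 to 459 CPM in untreated mice of the larger pool, and from 499 to 541 CPM against 636 and 674 CPM in the smaller pool. Again the groups did not overlap within a pool, and the log2 difference was -0.23 ± 0.042 (SE, adjusted p = 2.01e-05 from edgeR).

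The third member of this trio moved the other way. *Tcf3*, which encodes the E2A proteins E12 and E47, was at 198 to 229 CPM in treated and 178 to 191 CPM in untreated mice of the larger pool, and at 180 to 186 CPM against 162 and 170 CPM in the smaller pool. It was higher by a log2 difference of 0.24 ± 0.041 (SE, adjusted p = 5.93e-06 from edgeR), with no overlap within a pool.

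Both repressors were lower. *Bcl6* was at 205 to 228 CPM in treated against 242 to 264 CPM in untreated mice of the larger pool, and at 228 to 245 CPM against 301 and 302 CPM in the smaller pool. The log2 difference was -0.21 ± 0.043 (SE, adjusted p = 9.19e-05 from edgeR). *Bach2* was at 1156 to 1354 CPM against 1522 to 1768 CPM in the larger and at 1669 to 2120 CPM against 2605 and 3006 CPM in the smaller pool. The log2 difference was -0.37 ± 0.073 (SE, adjusted p = 6.44e-05 from edgeR). For each gene the lowest untreated mouse of a pool lay above the highest treated mouse of that pool.

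Among the factors that act beside BCL6, *Pou2af1* was the member whose groups were apart over both pools together. Treated mice ranged from 931 to 1025 CPM with a median of 988 CPM, and untreated mice from 808 to 905 CPM with a median of 856 CPM. The log2 difference was 0.26 ± 0.034 (SE, adjusted p = 6.56e-08 from edgeR). *Mef2b* was at 384 to 416 CPM against 329 to 374 CPM in the larger and at 329 to 351 CPM against 286 and 320 CPM in the smaller pool. The log2 difference was 0.23 ± 0.040 (SE, adjusted p = 1.13e-05 from edgeR). *Mef2b* overlaps *Borcs8* on the same strand, so that reads of one may be counted in the other and its values are uncertain. *Borcs8* itself differed in the opposite direction, by -0.14 ± 0.055 (SE, adjusted p = 0.031 from edgeR).

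The remaining factors changed less. *Mef2c* differed by -0.17 ± 0.039 (SE, adjusted p = 0.000536 from edgeR), from 807 to 845 CPM in untreated and 719 to 737 CPM in treated mice of the larger pool. *Irf8* differed by -0.17 ± 0.043 (SE, adjusted p = 0.00138 from edgeR), from 455 to 492 CPM and 381 to 419 CPM. *Spib* differed least as a share of UMIs, by -0.12 ± 0.048 (SE, adjusted p = 0.0351 from edgeR), and 5 of 17 alternatives kept this call. It was lost in each pool alone (adjusted p = 0.0763 and 0.201), and without the cell filter (0.0554) or the low-count filter (0.0575, all from edgeR). Its groups overlapped in the larger pool, at 194 to 211 CPM in untreated and 168 to 202 CPM in treated mice. In all, 9 of the 10 factors did not overlap within either pool, 3 higher and 6 lower, as did 22.7% of all genes tested, 9.07% higher and 13.7% lower. With only the cells that carried the B1-8hi pair of heavy and light chain, all 10 kept their call, but the difference of *Bach2* shrank to -0.23 ± 0.068 and that of *Mef2b* to 0.15 ± 0.044 (SE). The share of all genes called was not counted for these cells, so that the number of members called cannot be set against it.

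The pools differed in level, and how they are treated decided the call of 6 factors. In untreated mice at 48 h the mean of *Ebf1* was 1086 CPM in the smaller and 603 CPM in the larger pool, that of *Bach2* 2806 and 1658 CPM, that of *Mef2c* 1265 and 822 CPM, and that of *Pax5* 655 and 452 CPM. Without a term for the pool, 4 of the 10 factors were called, *Pou2af1*, *Mef2b* and *Tcf3* higher and *Bcl6* lower, against 26.2% of all genes. *Ebf1*, *Bach2*, *Pax5*, *Irf8*, *Mef2c* and *Spib* then had adjusted p of 0.109 to 0.552 (edgeR). Their log2 differences hardly moved, while the errors grew, with -0.47 ± 0.22 (SE) for *Ebf1*.

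The cells compared differed in depth and in phase. Treated mice at 48 h had a median of 13704 UMIs per cell (median over mice) against 6666.5 in untreated mice. They had 20.8% ± 2.70 of their cells in G1 against 51.9% ± 4.31, and 42.6% ± 3.03 in G2-M against 26.5% ± 3.81 (SD, n = 9 and 6). The pan B cell markers summed to 4064 to 5193 CPM in treated against 5532 to 6849 CPM in untreated mice, and the T cell markers to 0.377 to 4.51 CPM against 5.77 to 9.59 CPM. The GC markers summed to 1056 to 1306 CPM against 1108 to 1306 CPM, the plasma cell markers to 1184 to 1990.5 CPM against 767 to 1495 CPM and the myeloid markers to 119.9 to 198 CPM against 129 to 212 CPM. *Fcer2a*, *Klf2*, *Gpr183*, *Cd38* and *Ccr7*, which mark naive or memory B cells, summed to 95.7 to 196 CPM in treated and 242 to 414 CPM in untreated mice, mostly from *Fcer2a* (70.9 to 155 against 195 to 307 CPM). The groups did not overlap in this sum or in that of the pan B cell markers, and the part of these lists in the member differences was not tested. The gate was meant to leave out T cells and naive or memory B cells. In such sums, fewer cells of a type and less RNA per cell cannot be told apart. When UMIs were scaled per cell in place of CPM, a scaling chosen after seeing the data, 92.9% of all genes were higher in treated mice and the median gene shifted by 0.78 on the log2 scale. On that scale the members were higher by 0.31 (*Ebf1*) to 1.04 (*Pou2af1*). This scaling moves all genes by nearly the same amount, so that the order of the factors could hardly change with it. With cells thinned to 2871 UMIs, which left out 668 cells of the larger and 1699 of the smaller pool, *Ebf1* differed by -0.41 and *Pou2af1* by 0.26. *Spib* was then no longer past the threshold (adjusted p = 0.154 from edgeR).

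Phase and zone were then restricted separately, by summing only the cells of 1 class. Sums over 1 phase still mixed zones, and sums over 1 zone class still mixed phases. Among cells called G1, 4 factors were lower in treated mice (*Ebf1* by -0.30 ± 0.065, *Bcl6* by -0.25 ± 0.069, *Pax5* by -0.24 ± 0.066 and *Mef2c* by -0.21 ± 0.052, SE) and none was higher. Of all genes 9.35% passed the threshold, 4.80% higher and 4.55% lower. *Pou2af1* differed by 0.13 ± 0.057 (adjusted p = 0.155), *Tcf3* by 0.11 ± 0.070 (adjusted p = 0.365) and *Mef2b* by -0.02 ± 0.064 (SE, adjusted p = 0.885, all from edgeR) in these cells. The 3 factors that were higher over all cells thus did not pass the test in G1. Among S cells 4 factors were lower and *Pou2af1* was higher (11.4% of all genes called, 5.47% higher and 5.89% lower). Among G2-M cells *Ebf1* and *Bach2* were lower and *Mef2b* and *Pou2af1* higher (17.3%, 9.74% higher and 7.56% lower). *Ebf1* was lower in each of the 3 phases, by -0.30, -0.31 and -0.28 on the log2 scale.

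**Figure D2:**
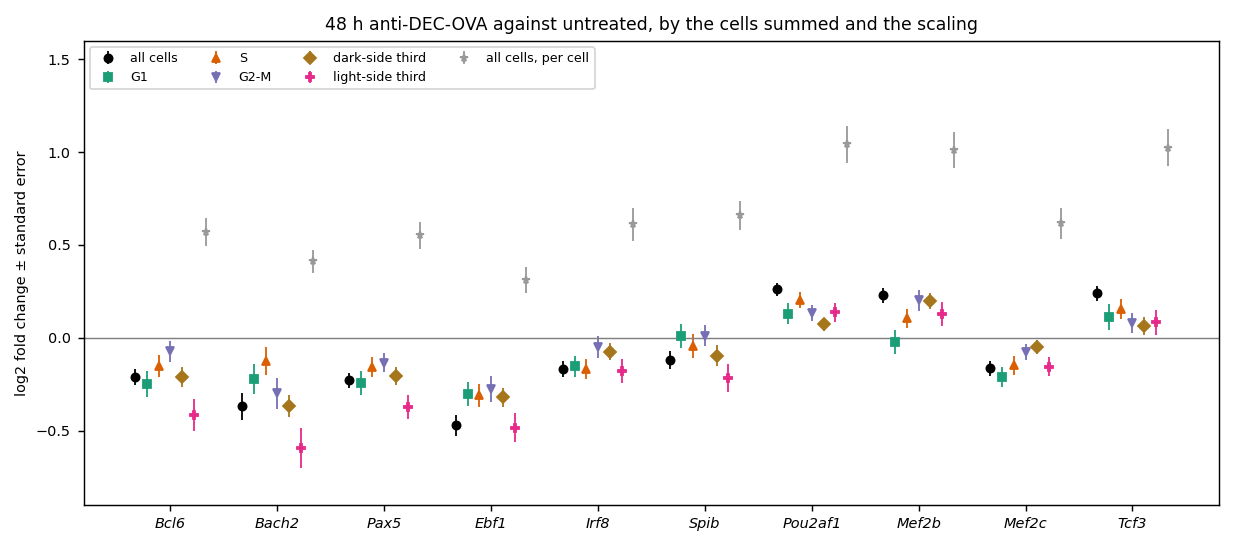
Log2 fold change ± standard error of each factor at 48 h, treated minus untreated, over all cells, over cells called G1, S or G2-M, over the dark and light class of the zone score, and with UMIs scaled per cell. The values relative to total UMIs lie between -0.59 and 0.26, and those per cell all lie above 0, between 0.31 and 1.04.

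By zone, cells were ranked by a score of light zone genes minus dark zone genes that holds none of the 10 factors, and cut at fixed quantiles into 3 classes, of which the outer ones are the light and the dark class. In the dark class *Bach2* (-0.37 ± 0.060), *Ebf1* (-0.32 ± 0.051), *Bcl6* (-0.21 ± 0.053) and *Pax5* (-0.21 ± 0.048, SE) were lower in treated mice and *Mef2b* was higher (0.20 ± 0.043). Of all genes 25.1% passed, 13.6% higher and 11.5% lower. In that class *Pou2af1* differed by 0.07 ± 0.036 (adjusted p = 0.144) and *Tcf3* by 0.06 ± 0.048 (SE, adjusted p = 0.372, both from edgeR). In the light class 7 factors were lower and *Pou2af1* was higher (26.3% of all genes, 13.5% higher and 12.8% lower), and *Bach2* had its largest difference there, -0.59 ± 0.110 (SE).

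Between these classes of cells the factors themselves differ, as the untreated mice show. In cells of the 23 untreated mice, of which the 6 at 48 h also serve as controls above, G2-M was compared with G1 as a share of UMIs. *Ebf1* (-0.62 ± 0.036), *Spib*, *Irf8*, *Pax5*, *Bcl6*, *Bach2* and *Mef2c* (-0.10 ± 0.029, SE) were lower in G2-M and *Tcf3* (0.69 ± 0.035), *Pou2af1* (0.46 ± 0.030) and *Mef2b* (0.33 ± 0.037, SE) higher, but all 10 were higher per cell, as were 91.9% of all genes. As shares of UMIs, 73.9% of all genes passed the threshold, 34.1% higher and 39.9% lower, or 27.9% and 49.0% without TMM factors. *Tcf3* rose from 142 ± 16.7 CPM in G1 to 214 ± 25.0 CPM in G2-M cells (SD, n = 23), in all 23 mice. *Ebf1* fell from 1120 ± 495 to 665 ± 241 CPM (SD, n = 23), also in all 23. These phases were called from genes that do not include the 10 factors.

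Zone gave another division of the same factors. In the same 23 mice *Mef2c* (0.49 ± 0.027), *Ebf1* (0.44 ± 0.028) and *Irf8* (0.40 ± 0.031, SE) were higher as a share of UMIs in the light class, each in 23 of 23 mice, although UMIs per cell, with 79.6% of all genes lower, gave -0.04, -0.09 and -0.13. *Pou2af1* (-0.84 ± 0.025), *Tcf3* (-0.77 ± 0.032) and *Bach2* (-0.48 ± 0.035, SE) were lower there in 23 of 23 mice, and *Bcl6* (-0.17 ± 0.035) and *Pax5* (-0.13 ± 0.028, SE) in 17 and 20 of them. Of the 10 factors 8 were called, with 64.4% of all genes (33.1% higher and 31.4% lower), and *Spib* (adjusted p = 0.927) and *Mef2b* (adjusted p = 0.398, both from edgeR) were not. Mean levels of *Pou2af1* were 640 ± 40.7 CPM on the light and 1122 ± 42.3 CPM on the dark side (SD, n = 23), and its log2 difference was the largest among the factors. Between 48 h treated and untreated mice the share of cells in the light class was 19.5% ± 3.23 against 42.5% ± 1.67 (SD, n = 9 and 6). Its part in the treatment differences was not tested beyond the comparisons within classes.

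**Figure D3:**
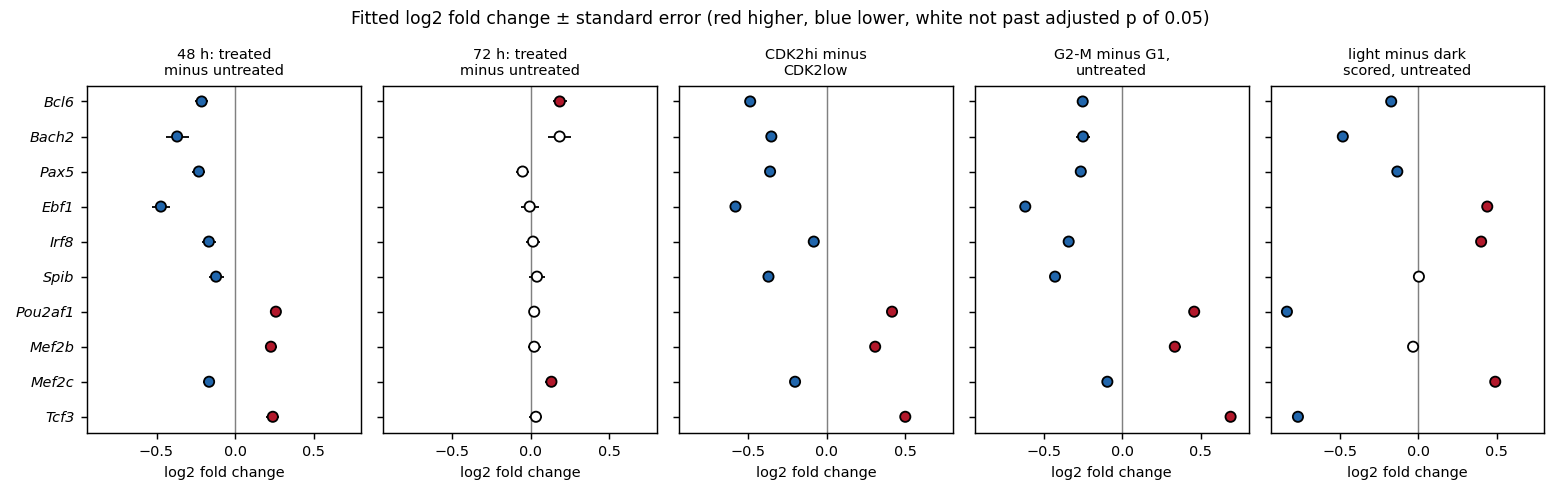
Fitted log2 fold change ± standard error of each factor, as a share of UMIs, in 5 comparisons, red where higher, blue where lower and white where the adjusted p was above 0.05. The panels for 48 h, CDK2hi and G2-M have 7 factors lower and 3 higher, which scaling per cell, a change that moves most genes alike (92.9% of all genes higher at 48 h, 91.9% higher in G2-M and 77% lower in CDK2hi), turns to 10 higher at 48 h and in G2-M and to 8 lower in CDK2hi. The panel for 72 h has 2 higher.

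At 72 h most of the difference had gone. *Bcl6*, at 271 to 355 CPM in treated mice (median 300.3) and 247 to 288 CPM in untreated mice (median 259), was higher by 0.18 ± 0.044 (SE, adjusted p = 0.00462 from edgeR). *Mef2c* was higher by 0.13 ± 0.039 (SE, adjusted p = 0.0238 from edgeR). The other 8 factors did not pass the threshold, which 8.66% of all genes passed, 4.90% higher and 3.76% lower. *Ebf1* differed by -0.01 ± 0.058 (SE), at 564 to 1486 CPM in treated and 599 to 1216 CPM in untreated mice, and *Bach2* by 0.18 ± 0.073 (SE, adjusted p = 0.114 from edgeR). The differences of *Irf8*, *Pou2af1*, *Mef2b*, *Tcf3* and *Spib* were 0.01 to 0.04 and that of *Pax5* was -0.05 on the log2 scale. Of 17 alternatives, 6 took the call from *Bcl6* and 10 from *Mef2c*, which had 0.0068 in G1 cells (adjusted p = 0.963 from edgeR). In the smaller pool alone 0 of the 10 factors passed, against 0.213% of all genes.

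Set against 48 h, the treated mice at 72 h had 7 factors higher and *Pou2af1* (-0.18 ± 0.032) and *Tcf3* (-0.19 ± 0.040, SE) lower as a share of UMIs, but the 7 turned to lower in UMIs per cell, a scaling in which 92.0% of all genes were lower at 72 h. The share of all genes called was 48.9%, with 24.1% higher and 24.8% lower, or 34.2% and 17.9% without TMM factors. *Bach2* rose most, by 0.56 ± 0.070 (SE), followed by *Ebf1* with 0.51 ± 0.056 and *Bcl6* with 0.33 ± 0.042 (SE). In the larger pool *Bach2* was at 1156 to 1354 CPM at 48 h and 1760.5 to 2100 CPM at 72 h. In the smaller pool it was at 1669 to 2120 CPM and 2878 to 4062 CPM. *Mef2c* (0.24), *Spib* (0.18), *Pax5* (0.17) and *Irf8* (0.15) were higher by less. *Mef2b* did not pass (-0.05 ± 0.039, adjusted p = 0.245 from edgeR). Treated mice at 72 h had 47.9% ± 6.84 (SD, n = 7) of their cells in G1 and a median of 7208 UMIs per cell, against 20.8% and 13704 at 48 h. The pan B cell markers summed to 5284 to 7398.5 CPM and the genes that mark naive or memory B cells to 194 to 325 CPM, against 4064 to 5193 and 95.7 to 196 CPM. The part of these shifts in the differences was not tested.

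The difference between both time points was itself tested as an interaction. The treatment effect differed between 48 h and 72 h for 9 of the 10 factors and for 31.4% of all genes, 17.0% higher and 14.4% lower. The difference of the effects was -0.55 ± 0.10 for *Bach2*, -0.46 ± 0.082 for *Ebf1*, -0.40 ± 0.061 for *Bcl6*, -0.30 ± 0.055 for *Mef2c*, -0.18 ± 0.061 for *Irf8* and -0.18 ± 0.060 for *Pax5* (SE). It was 0.24 ± 0.047 for *Pou2af1*, 0.21 ± 0.058 for *Tcf3* and 0.21 ± 0.057 for *Mef2b* (SE). *Spib* did not pass (-0.16 ± 0.068, adjusted p = 0.0701 from edgeR). With the B1-8hi pair alone *Pax5* fell to -0.10 (adjusted p = 0.17) and *Mef2b* to 0.13 (adjusted p = 0.131, both from edgeR). The 6 negative values all became positive with UMIs per cell, a scaling in which 84.0% of all genes were higher. Within G1 cells alone 1 of the 10 interactions passed, with 2.65% of all genes.

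Untreated mice changed little over the same days. Between 0 h and 48 h, 0 of the 10 factors passed the threshold in edgeR, which 0.136% of all genes passed, and 968 genes had an unadjusted p under 0.05 (DESeq2 called 25 genes). The log2 differences ranged from -0.15 for *Spib*, -0.11 for *Bach2* and -0.10 for *Pou2af1* over *Bcl6*, *Tcf3*, *Ebf1*, *Pax5*, *Irf8* and *Mef2b* to 0.07 for *Mef2c*. Between 0 h and 72 h *Mef2b* was higher by 0.17 ± 0.038 (SE, adjusted p = 0.0045) and *Bcl6* lower by -0.14 ± 0.041 (SE, adjusted p = 0.049, both from edgeR), with 3.95% of all genes called (1.83% higher and 2.12% lower). The call of *Bcl6* was lost in 14 of 17 alternatives and that of *Mef2b* in 7 of 17. The other 8 factors ranged from -0.13 for *Spib* and -0.11 for *Bach2* over *Pou2af1*, *Irf8*, *Tcf3*, *Pax5* and *Mef2c* to 0.02 for *Ebf1*. *Mef2b* thus had its lowest means at 0 h (335 ± 33.4 CPM, SD, n = 9) and at 48 h without treatment (338 ± 32.8 CPM, SD, n = 6), and the other 3 groups lay between 377 and 380 CPM. These comparisons share the treated or untreated mice of a time point with those above and are not independent of them.

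In the order of group means over the time course, *Bcl6* ran from treated mice at 72 h (303 ± 26.9 CPM, n = 7) over 0 h (288 ± 35.1, n = 9) to untreated mice at 48 h (272 ± 24.2, SD, n = 6). Below these lay untreated mice at 72 h (264 ± 16.6, n = 8) and treated mice at 48 h (225 ± 13.1, SD, n = 9). Its last step was larger than the SD of either neighbour and the other steps were not. Treated mice at 48 h had the lowest mean in each pool, while the top 2 groups changed places in the smaller pool, at 318 CPM in treated mice at 72 h and 324 CPM at 0 h. In *Irf8* and *Spib* the last step was likewise the one beyond the SD. The lowest group of *Irf8* was at 383 ± 34.2 CPM (SD, n = 9) and that of *Spib* at 170 ± 20.9 CPM (SD, n = 9), treated mice at 48 h in both. For *Pou2af1* the step beyond the SD was at the top, from 981 ± 28.7 CPM in treated mice at 48 h (SD, n = 9) to 923 ± 23.4 CPM at 0 h (SD, n = 9). For *Ebf1*, *Bach2*, *Pax5* and *Mef2c*, with SDs that hold the difference between the pools, no neighbouring groups were further apart than the larger SD.

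The second experiment asked how the factors stand in cells of high and low CDK2 activity, both taken from the same treated mouse at 72 h. As a share of UMIs the same 7 factors were lower and the same 3 higher in CDK2hi cells, all 10 past the threshold with 73.3% of all genes, although 8 were lower and none was higher when scaled per cell, with 77% of all genes lower and 11% higher. As shares of UMIs 35.6% of all genes were higher and 37.8% lower, or 23.2% and 56.7% without TMM factors, which moved the median gene by 0.20 on the log2 scale and left the members at 3 higher and 7 lower. The CDK2hi and CDK2low libraries had medians of 10534 and 12885 UMIs per cell. Values per cell carry this difference, so that RNA content per cell and depth of the library cannot be told apart in them. None of these mice entered the comparisons above.

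*Bcl6* shows the size of the gap. Its level in CDK2hi cells was between 225 and 271 CPM with a median of 243 CPM, and in CDK2low cells of the same mice between 372 and 432 CPM with a median of 385 CPM. No population of one kind overlapped the other, and the fitted difference was -0.49 ± 0.026 (SE, adjusted p = 1.22e-14 from edgeR with the mouse as a block), lower in 7 of 7 mice. *Ebf1* differed most, from 906 to 1211 CPM in CDK2low (median 1068) and 534 to 706 CPM in CDK2hi cells (median 577), by -0.58 ± 0.024 (SE, adjusted p = 3.34e-17 from edgeR), in 7 of 7 mice.

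*Spib* (-0.37 ± 0.027), *Pax5* (-0.36 ± 0.024) and *Bach2* (-0.35 ± 0.024) followed, then *Mef2c* (-0.20 ± 0.020) and *Irf8* (-0.08 ± 0.024, SE), each lower in 7 of 7 mice. On plain CPM, without the TMM factors, each difference lay lower by about 0.20, at -0.28 for *Irf8* and -0.40 for *Mef2c*. The 3 factors that were higher then had smaller differences, 0.30 for *Tcf3*, 0.22 for *Pou2af1* and 0.11 for *Mef2b*, all still past the threshold. *Spib* had mean levels of 185 ± 7.40 CPM in CDK2hi and 274 ± 12.5 CPM in CDK2low cells (SD, n = 7), and *Bach2* of 2072 ± 229 and 3040 ± 339 CPM (SD, n = 7).

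*Tcf3*, with 191 to 217 CPM in CDK2hi (median 203) and 154 to 178 CPM in CDK2low cells (median 159), was higher by 0.50 ± 0.030 (SE, adjusted p = 1.2e-13 from edgeR). *Pou2af1*, with 867 to 965 CPM (median 938) against 727 to 858 CPM (median 803), was higher by 0.42 ± 0.025 (SE, adjusted p = 9.22e-14 from edgeR). Both were higher in 7 of 7 mice. *Mef2b* was higher by 0.31 ± 0.030 (SE, adjusted p = 9.89e-10 from edgeR) but in 6 of 7 mice, the seventh having 421 CPM in CDK2hi and 426 CPM in CDK2low cells. Per cell, *Pou2af1* differed by -0.07, *Mef2b* by -0.18 and *Tcf3* by 0.01. Over all genes tested, 65.9% had the same direction of CPM in every mouse, 46.5% lower and 19.4% higher in CDK2hi.

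**Figure D4:**
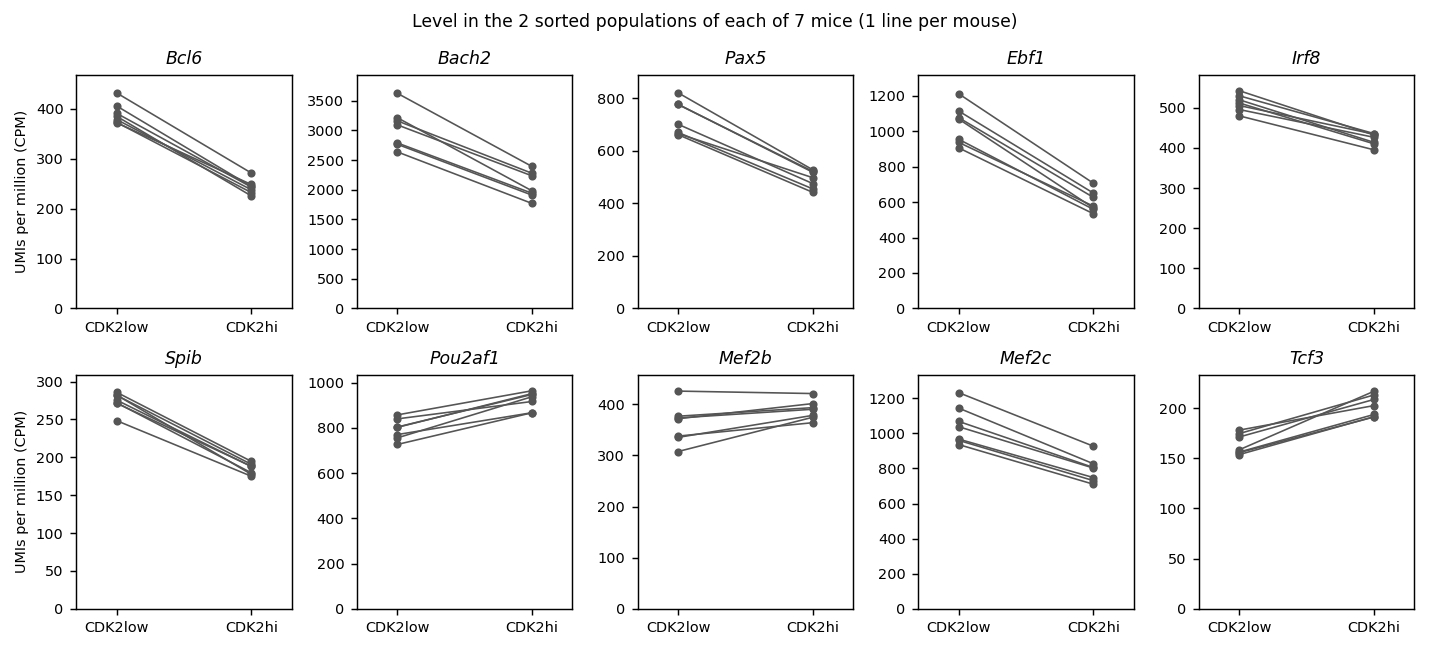
Level of each factor in CPM in the CDK2low and CDK2hi cells of 7 mice, with 1 line per mouse and axes that start at 0. The lines of *Bcl6*, *Bach2*, *Pax5*, *Ebf1*, *Irf8*, *Spib* and *Mef2c* fall in all 7 mice and those of *Pou2af1* and *Tcf3* rise in all 7, with *Mef2b* rising in 6 of 7, while UMIs per cell gave no rise past the threshold.

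The populations differed in phase, with 16.0% ± 2.73 of CDK2hi and 57.8% ± 4.27 of CDK2low cells in G1 (SD, n = 7), and 24.1% ± 3.89 against 47.7% ± 4.58 in the light class (SD, n = 7). The GC markers summed to 1232 to 1362 CPM in CDK2hi and 1283 to 1421 CPM in CDK2low cells. The pan B cell markers summed to 4302 to 4972 CPM in CDK2hi and 6476 to 7030 CPM in CDK2low cells. The 5 genes that mark naive or memory B cells summed to 98.8 to 176 CPM in CDK2hi and 329 to 515 CPM in CDK2low cells, again mostly *Fcer2a* (77.7 to 146 against 284 to 416 CPM). Neither of these 2 sums overlapped between the populations, whereas the plasma cell markers (878 to 1082 against 844 to 1099.9 CPM) and the myeloid markers (157 to 206 against 175 to 215 CPM) did. The part of these lists in the result was not tested. Within the dark class *Bcl6* (-0.49), *Ebf1* (-0.44), *Spib* (-0.42), *Pax5* (-0.36) and *Bach2* (-0.27) were lower in CDK2hi cells. *Irf8* (-0.04, adjusted p = 0.365) and *Mef2c* (0.05, adjusted p = 0.191, both from edgeR) did not pass there. Within the light class the same factors and *Mef2c* (-0.19) were lower, and *Irf8* (0.07, adjusted p = 0.0682 from edgeR) did not pass. *Tcf3*, *Pou2af1* and *Mef2b* were higher in both classes. The share of all genes called in the dark and light class is not given here, so that these calls cannot be set against it. Among G1 cells alone 7 factors were lower and *Pou2af1* and *Tcf3* higher in CDK2hi cells, with 60.3% of all genes called, 30.0% higher and 30.3% lower. *Bach2* (-1.07 ± 0.032), *Ebf1* (-0.85 ± 0.041) and *Mef2c* (-0.75 ± 0.036, SE) had larger differences than over all cells. *Mef2b* differed by -0.02 ± 0.044 there (SE, adjusted p = 0.76 from edgeR).

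Among cells in S or G2-M, *Bcl6* (-0.40 ± 0.030), *Ebf1* (-0.34 ± 0.026), *Spib* (-0.23 ± 0.033) and *Pax5* (-0.22 ± 0.026, SE) were lower and *Tcf3*, *Pou2af1* and *Mef2b* higher in CDK2hi cells, with 61.3% of all genes called, 29.6% higher and 31.7% lower. *Bach2* (-0.01 ± 0.024, adjusted p = 0.7), *Irf8* (-0.01 ± 0.029, adjusted p = 0.723) and *Mef2c* (-0.01 ± 0.025, SE, adjusted p = 0.683, all from edgeR) did not pass in these cells. *Bach2* and *Mef2c* were thus apart between the populations in G1 cells and were not detectably so in cycling ones, and whether the phases differ in this was not tested. The cycling cells were not matched for phase. Of all CDK2hi cells 34.4% ± 3.67 were in S and 49.6% ± 4.18 in G2-M (SD, n = 7). In CDK2low cells these shares were 32.6% ± 2.85 and 9.64% ± 2.11 (SD, n = 7). The part of this mix in the differences among S or G2-M cells was not tested.

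The third experiment, shallower and with another sort, gave no member past the threshold between treated and untreated mice at 10 dpi in edgeR. Of all genes 1.95% passed, 0.826% higher and 1.12% lower, while 1084 genes had an unadjusted p under 0.05 and DESeq2 called 100 genes. Of the 10681 cells kept in this pool, 583 carried the B1-8hi pair. The share was 0.817% to 3.46% per treated and 8.06% to 13.8% per untreated mouse at 10 dpi, against 32.15% to 77.7% per mouse in the time course. The cause of this gap was not tested, and the result is not one about B1-8hi-paired cells. *Bcl6* had 177, 205 and 217 CPM in the 3 untreated and 190, 193 and 195 CPM in the 3 treated mice. *Ebf1* had 635, 669 and 707 CPM against 620, 671 and 680 CPM. For both genes the groups overlapped. *Mef2c*, with 589, 660 and 670 CPM in untreated and 699, 707 and 711 CPM in treated mice, was the 1 factor whose groups did not, as for 17.1% of all genes (8.74% higher and 8.38% lower). It passed the threshold in 1 of 14 alternatives, UMIs per cell (adjusted p = 0.0339 from edgeR, 8.43% of all genes). The log2 differences of the 10 factors ranged from -0.17 ± 0.086 for *Spib* to 0.12 ± 0.062 for *Mef2c* (SE). Between these lay *Pax5* (-0.11), *Bcl6*, *Pou2af1*, *Ebf1*, *Tcf3*, *Irf8*, *Bach2* and *Mef2b* (-0.0067). The SEs of the factors were 0.062 to 0.086 here. In the time course they were 0.033 to 0.073 at 72 h, the same time after treatment, and 0.034 to 0.073 at 48 h. With simulated counts, edgeR recovered 5.56% of 1.2-fold changes in this experiment.

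Genes listed as targets and partners of the factors were counted in the same fits. Of 15 B cell genes that PAX5, EBF1 and E2A activate, 15 were lower as a share of UMIs in treated mice at 48 h (median log2 difference -0.56, against -0.0046 for all genes, of which 22.5% were lower). Also 15 were lower in CDK2hi cells (median -0.54, against -0.029 and 37.8% of all genes lower). Between cells of untreated mice, 15 were lower in G2-M than in G1 (median -0.62, 39.9% of all genes lower), and 12 were higher and 2 lower in the light than in the dark class (median 0.32, 33.1% and 31.4% of all genes). Treated mice at 48 h and CDK2hi cells had smaller shares of G1 and light-class cells, as given above, and the part of these in the list's counts was not tested. The complement receptor gene *Cr2* had 102 ± 14.2 CPM in untreated and 37.4 ± 10.98 CPM in treated mice (SD, n = 6 and 9), a log2 difference of -1.39 ± 0.17 (SE). *Cd55*, a regulator of complement, had 18.9 ± 3.24 and 7.30 ± 1.44 CPM (SD, n = 6 and 9), a log2 difference of -1.31 ± 0.15 (SE). *Fcer2a*, the low-affinity IgE receptor, was at 352 ± 43.3 CPM in CDK2low and 120 ± 25.5 CPM in CDK2hi cells (SD, n = 7). *Lef1*, which T cells also express, was at 3.97 ± 6.69 and 0.801 ± 0.384 CPM (SD, n = 7), and the part of the CDK2low mouse with the high T cell sum in this was not tested. At 72 h 3 of the 15 were lower in treated mice (3.76% of all genes lower), and 13 of 15 were higher at 72 h than at 48 h (24.1% of all genes).

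Genes that BCL6 or BACH2 repress had a median log2 difference of -0.40 at 48 h. Of 16 tested, *Hmox1*, a heme oxygenase and known BACH2 target, was higher, from 2.19 ± 0.790 to 3.81 ± 0.948 CPM (SD, n = 6 and 9). Lower were 5, among them the migration receptor *Gpr183*, from 24.1 ± 7.20 to 10.4 ± 2.15 CPM, and the cyclin gene *Ccnd2*, from 13.8 ± 6.07 to 5.28 ± 1.45 CPM (SD, n = 6 and 9). *Gpr183* is also among the naive or memory B cell genes, whose sum was lower in treated mice. The part of that shift and of phase and zone in these counts was not tested. Of all genes 22.5% were lower and 24.8% higher in this comparison. Between cells of untreated mice, 11 of 14 tested were lower and 1 higher in G2-M than in G1 (median -0.87). In the light class 10 of 15 tested were higher and 3 lower than in the dark class (median 0.79). The shares of all genes in both of these comparisons are given above. At 72 h 7 of the 16 were lower in treated mice and 1 higher (median -0.45), against 3.76% and 4.90% of all genes. In CDK2hi cells 10 of the 16 were lower and 2 higher, against 37.8% and 35.6% of all genes. *Prdm1*, which encodes the plasma cell regulator BLIMP1, was at 0.0783 ± 0.105 CPM in CDK2hi and 0.939 ± 0.799 CPM in CDK2low cells (SD, n = 7), which is few UMIs. The chemokine receptor *Ccr6* was at 1.37 ± 0.396 and 5.57 ± 2.32 CPM (SD, n = 7). The cell-cycle inhibitor *Cdkn1a* (1.38 ± 0.439 against 1.09 ± 0.386 CPM) and *Cd80* (3.46 ± 0.875 against 2.70 ± 0.531 CPM, SD, n = 7) were the 2 that were higher in CDK2hi.

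The corepressors that BCL6 recruits were mixed. At 48 h 5 of 13 were higher and 1 lower (24.8% and 22.5% of all genes), with the deacetylases *Hdac2* (0.31 ± 0.061) and *Hdac1* (0.27 ± 0.037) higher and *Tbl1xr1*, a part of the NCoR complex, lower (-0.34 ± 0.050, SE). In CDK2hi cells 5 were higher and 6 lower, shares near those of all genes (35.6% and 37.8%), with *Hdac2* (0.51 ± 0.046) and *Hdac1* (0.49 ± 0.026) again highest and *Cbx8* (-0.61 ± 0.079) and *Tbl1xr1* (-0.40 ± 0.035, SE) lowest.

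Of 22 partner and related transcription factors, 12 were lower and 3 higher at 48 h (22.5% and 24.8% of all genes), and 12 lower and 6 higher in CDK2hi cells (37.8% and 35.6% of all genes). *Foxp1*, a forkhead repressor of resting B cells, was lower in both comparisons (-0.62 ± 0.085 and -0.97 ± 0.026, SE). *Irf4*, which drives plasma cell differentiation, was the most lowered at 48 h (-0.98 ± 0.19, SE), and *Lmo2* was lower in CDK2hi cells by -0.86 ± 0.044 (SE). *Myb* was higher in both (0.38 ± 0.12 and 1.40 ± 0.11, SE). *Id3*, an inhibitor of E2A, was higher at 48 h by 0.31 ± 0.11 (SE), and *Pou2f1*, which encodes the OCT1 partner of OCA-B, was higher in CDK2hi cells by 0.49 ± 0.033 (SE). These lists were drawn up with earlier results of the same data known, so that their counts are descriptions, and as shares of UMIs they carry the same dependence on scaling as the members.

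Finally, genes were ranked by how closely their levels followed each factor over the 39 mice of the time course, as Pearson's r of log2 CPM with pool means removed. Of 6750 genes, those of the immunoglobulin loci and some not reported here were skipped, so the closest genes are those among the rest. The closest to *Ebf1* were *Itpr2* (r = 0.97) and *Ripor2* (0.96), to *Bach2* *Ankrd44* and *Hivep2* (both 0.95), to *Pax5* *Phf21a* (0.93) and *St8sia4* (0.92), and to *Bcl6* *Itsn2* (0.92) and *Ptprc* (0.91). *Mef2c* was followed by *Stt3b* (0.91) and *Sorl1* (0.90), *Spib* by *Sh3glb1* (0.91) and *Ltb* (0.89), and *Irf8* by *Rbm39* (0.86) and *Arhgap30* (0.85). The 3 factors that were higher at 48 h had looser neighbours, *Cmpk1* (0.80) and *Pkig* (0.78) for *Pou2af1*, *Smarca4* (0.78) and *Sod1* (0.76) for *Tcf3*, and *Plxnb2* (0.76) and *Igf2bp3* (0.72) for *Mef2b*. The mice share 5 groups and differ in depth, so these values describe likeness over groups and mice together.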

How the data were processed

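The deposited files are counts of UMIs per gene and cell for 5 pools of sorted mouse lymph node cells, with antibody-tag counts that mark the mouse. The authors aligned reads with Cell Ranger, given as 6.0.1 with Seurat 5.1.0 and mm39 in the submitters' processing notes but, per the file headers, as 7.1.0 for the pool of the third experiment and 8.0.1 for the other 4. Which version made a table was not resolved further. The antibody tags were demultiplexed here with HTODemux in Seurat 5.3.0 (positive quantile 0.99), and a cell was used if it had 200 or more genes and less than 10% of its UMIs from mitochondrial genes, which left 46212 cells. The mitochondrial limit removed 3114 cells of the smaller and 350 of the larger time course pool. No separate doublet caller was run beyond the removal of cells with tags of more than 1 mouse.

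UMIs were summed per mouse and tested with edgeR 4.0.16 in R 4.3.3 (TMM factors, filterByExpr, quasi-likelihood test, Benjamini-Hochberg adjustment over all genes, threshold 0.05), with pool as a term in the time course and mouse as a block in the CDK2 comparison. SEs were derived from the log2 fold change and its F statistic. The pairing of CDK2hi and CDK2low cells comes from the authors' list of mice. The other groups are separate mice. Phase was called in each pool on its own with the Seurat cell cycle lists, so that CDK2hi and CDK2low cells were called separately. Zone classes were cut within each pool, and over both CDK2 populations together. The zone score used the light zone genes *Cd83*, *Cd86*, *Nfkbia*, *Egr1*, *Egr3*, *Cd40*, *Icam1*, *Traf1*, *Bhlhe40*, *Slamf1*, *Il4i1* and *Nr4a1* minus the dark zone genes *Cxcr4*, *Foxo1*, *Gcsam*, *Polh*, *Tifa*, *Hmces* and *Rgs13*. Alternatives were DESeq2 1.42.0, other filters and scalings, thinned cells, single pools, phases and zone classes, and each CDK2 mouse or mouse of the third experiment left out. Scaling per cell and without TMM factors was added after seeing the data. The tests were checked on simulated counts.

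All 10 members are named in every comparison. From each gene list, up to 2 genes with the highest and 2 with the lowest log2 fold change past the threshold are named at 48 h and for CDK2, and for each member the 2 genes of closest level that were not skipped. *Borcs8* was added after its values were seen. The members and lists were chosen with earlier results of these data known. Intervals and SEs cover the spread between mice, and sums hold cells with and without the B1-8hi pairing. The naive or memory B cell list is given by 5 of its markers, and 1 other is not reported here.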

Additional observations from a re-analysis of the deposited data

Results flagged for a closer look

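In treated mice at 72 h, 1 mouse of the larger pool had a *Pou2af1* level of 835 CPM, apart from the other 6 mice, the nearest of which had 913 CPM. Among the CDK2low cells of 7 mice, 1 mouse had a *Spib* level of 248 CPM, with the nearest at 271 CPM. Of 70 groups examined for such a mouse 2 had one, and chance gives about 1 in 20 groups.

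By the interaction test in edgeR, the treatment effect differed between 48 h and 72 h for 9 factors, as it did for 3223 of the 10270 genes tested. The log2 differences of the effects were -0.40 for *Bcl6*, -0.55 for *Bach2*, -0.18 for *Pax5*, -0.46 for *Ebf1*, -0.18 for *Irf8*, -0.30 for *Mef2c*, 0.24 for *Pou2af1*, 0.21 for *Mef2b* and 0.21 for *Tcf3*.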

How the results depend on the processing

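Of 1480 alternative values for the members, 1275 kept their direction and side of the threshold, 148 fell short of it, 7 newly passed it, and 50 changed sign where the original or the alternative value was called. The cause of these changes was not tested. Single pools and subsets also hold fewer mice or cells.

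The number of factors called is given here with the share of all genes called in the same setting. At 48 h (10, 47.3%) it was 4 with no term for the pool (26.2%), 4 in G1 (9.35%), 5 in S (11.4%), 4 in G2-M (17.3%) and 5 in the dark class (25.1%). For treated against untreated mice at 72 h (2, 8.66%) it was 1 in G1 (9.19%), in S (4.33%), with thinned cells (4.77%), in the larger pool (8.08%) and with only the 2 groups fitted (8%). It was 0 in G2-M (3.22%), in the light (2.93%) and dark class (3.39%), in the smaller pool (0.213%) and with no pool term (2.12%). For 72 h against 48 h (9, 48.9%) it was 5 with no pool term (30.4%), 3 in G1 (5.44%), 4 in G2-M (28.5%) and 5 in the dark class (31.9%). For 72 h against 0 h (2, 3.95%) it was 1 in S, G2-M, the dark class, the larger pool, without TMM factors, without the cell filter and without the low-count filter (1.38% to 3.97%), and 0 in G1, the light class, the smaller pool, with thinned cells, per cell, with no pool term and with only the 2 groups (0.029% to 2.57%). For the interaction (9, 31.4%) it was 1 in G1 (2.65%), 3 in S (5.91%), 3 in G2-M (9.91%), 4 in the dark class (10.6%), 5 in the light class (9.61%), 2 with no pool term (12%) and 4 in the smaller pool (7.43%). In the third experiment (0, 1.95%) it was 1 per cell (8.43%).

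Signs changed with UMIs per cell as follows. At 48 h the values were *Bach2* 0.41, *Bcl6* 0.57, *Ebf1* 0.31, *Irf8* 0.61, *Mef2c* 0.62, *Pax5* 0.55 and *Spib* 0.66. For 72 h against 48 h they were *Bach2* -0.16, *Bcl6* -0.38, *Ebf1* -0.20, *Irf8* -0.56, *Mef2c* -0.47, *Pax5* -0.54 and *Spib* -0.53. For G2-M they were *Bach2* 0.80, *Bcl6* 0.81, *Ebf1* 0.44, *Irf8* 0.71, *Mef2c* 0.96, *Pax5* 0.79 and *Spib* 0.63, and for the interaction *Bach2* 0.15, *Bcl6* 0.30, *Ebf1* 0.23, *Irf8* 0.51, *Mef2c* 0.39, *Pax5* 0.52 and *Spib* 0.53. Between zones they were *Ebf1* -0.094, *Irf8* -0.13, *Mef2c* -0.043 and *Spib* -0.53, and between CDK2 populations *Mef2b* -0.18 and *Pou2af1* -0.071.

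Within G1 they were *Mef2b* -0.022 and *Spib* 0.0083 at 48 h, *Mef2b* 0.23, *Pou2af1* 0.015 and *Tcf3* 0.062 for 72 h against 48 h, *Mef2b* -0.017 for CDK2, *Mef2b* 0.16 and *Spib* -0.18 between zones, and *Mef2b* -0.13 and *Tcf3* -0.0058 for the interaction. Within G2-M *Spib* was 0.012 at 48 h. In the dark class the value of Irf8, 72 h against 48 h after anti-DEC-OVA, was -0.0082, and *Irf8* was 0.0034 for the interaction, and *Mef2c* 0.049 for CDK2. In the light class *Irf8* was 0.070 for CDK2, and with thinned cells *Mef2b* was 0.13 between zones.

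For the CDK2 comparison, 10 factors were called with the pairing, as were 7770 of the 10596 genes tested, and 10 without the mouse as a replicate block. The adjusted p of *Irf8* was 0.0476 without the block and 0.00345 with it (edgeR). Leaving out each mouse gave 10 to 10 factors there and 0 to 0 in the third experiment. The share of all genes called was not counted without the block or with a mouse left out.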
